A study of Mus musculus with 6 samples.

Results

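Meiotic entry, synapsis and recombination genes were described in testes of mice that lack H3t, the testis form of histone H3, and in testes of wild-type (WT) mice. The 37 genes were taken by symbol from a table of 54100 genes. They were grouped by step into 3 entry genes, 6 cohesin and axis genes, 7 synaptonemal complex genes, 10 genes of breaks and strand exchange, 7 crossover genes and 4 genes of telomere attachment. RNA came from cryosections of testis, and the groups were 3 H3t deletion and 3 WT libraries. The labels give the genotype and the tissue. Of age, strain and how the deletion was made, the sources used here say nothing.

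In meiosis, male germ cells leave the spermatogonial state when retinoic acid induces Stra8. The cells then load meiotic cohesins, build a protein axis along each chromosome, and cut their DNA with Spo11. Dmc1 and its helpers pair the broken ends with the homologous chromosome, the synaptonemal complex zips the homologs together, and a few of the repair sites mature into crossovers. Chromosome ends meanwhile are tethered to the nuclear envelope so that the chromosomes can move and find their partners.

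Total counts were 8315960 to 8988520 in the H3t deletion libraries and 8037826 to 10702930 in the WT libraries. H3f4, for which RefSeq lists H3t as a synonym, had 0 counts in each deletion library and 356 to 571 counts in WT. Levels are given as CPM, counts scaled to the library's reads on tested genes and by its TMM factor, under which 1 count was worth 0.0904 to 0.0953 CPM in the deletion and 0.116 to 0.156 CPM in WT. Log2 changes are deletion minus WT, with standard errors (SE) and p-values from the quasi-likelihood test of edgeR, adjusted by Benjamini and Hochberg's method over 17038 genes. A gene was called at a false discovery rate of 0.05. Mitochondrial genes took 21.6% to 22.7% of all counts in the deletion and 5.59% to 6.44% in WT, and somatic genes also took a larger share in the deletion; what part either had in the results was not tested. A list of 15 Sertoli cell genes held 0.586% ± 0.0174 of all counts in the deletion and 0.0841% ± 0.00462 in WT, and 9 Leydig cell genes held 0.543% ± 0.0298 in the deletion and 0.0362% ± 0.00107 in WT (SD, n = 3 each).

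Most of the meiotic genes fell, and reads of all but 1 of them were found in every deletion library. Summed, they reached 837 to 908 CPM in deletion libraries and 5339 to 6189 in WT libraries. Without any scaling factor, they held 0.108% ± 0.00205 of all counts in the deletion and 0.461% ± 0.0305 in WT (SD, n = 3 each), 4.28-fold less in the deletion. The 6 libraries separated by group (exact permutation test, two-sided p = 0.1, which 3 against 3 libraries cannot go below). In bulk tissue, fewer cells of a type and less RNA per cell cannot be told apart.

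Of the 37 genes, 35 passed the filter on low counts. In the deletion 30 of them were lower, where 46.1% of all genes tested were lower, and 2, Stra8 and Tex11, were higher, where 38.4% of all genes were higher. The other 3 were not called, and 84.5% of all genes were called in either direction. The median log2 change was -2.38 over the 35 genes and -0.19 over all genes tested, and 32 of the 35 lay below that median of all genes. Of the genes called lower, 22 had an estimate at least 4-fold lower, where 29.5% of all genes tested did, and 4 an estimate at least 16-fold lower, where 19.9% of all genes did. At 16-fold, the share of the 35 genes was not above that of all genes. The changes ranged widely, from Syce1, at a log2 change of -5.36, to genes such as Prdm9 and Rad21l whose levels overlapped between the groups. Both groups' libraries overlapped for 6 of the 37 genes, the deletion lay below WT in 29 and above it in 2, where 46.7% and 39.2% of all genes tested lay below and above without overlap, 85.9% in all.

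**Figure D1:**
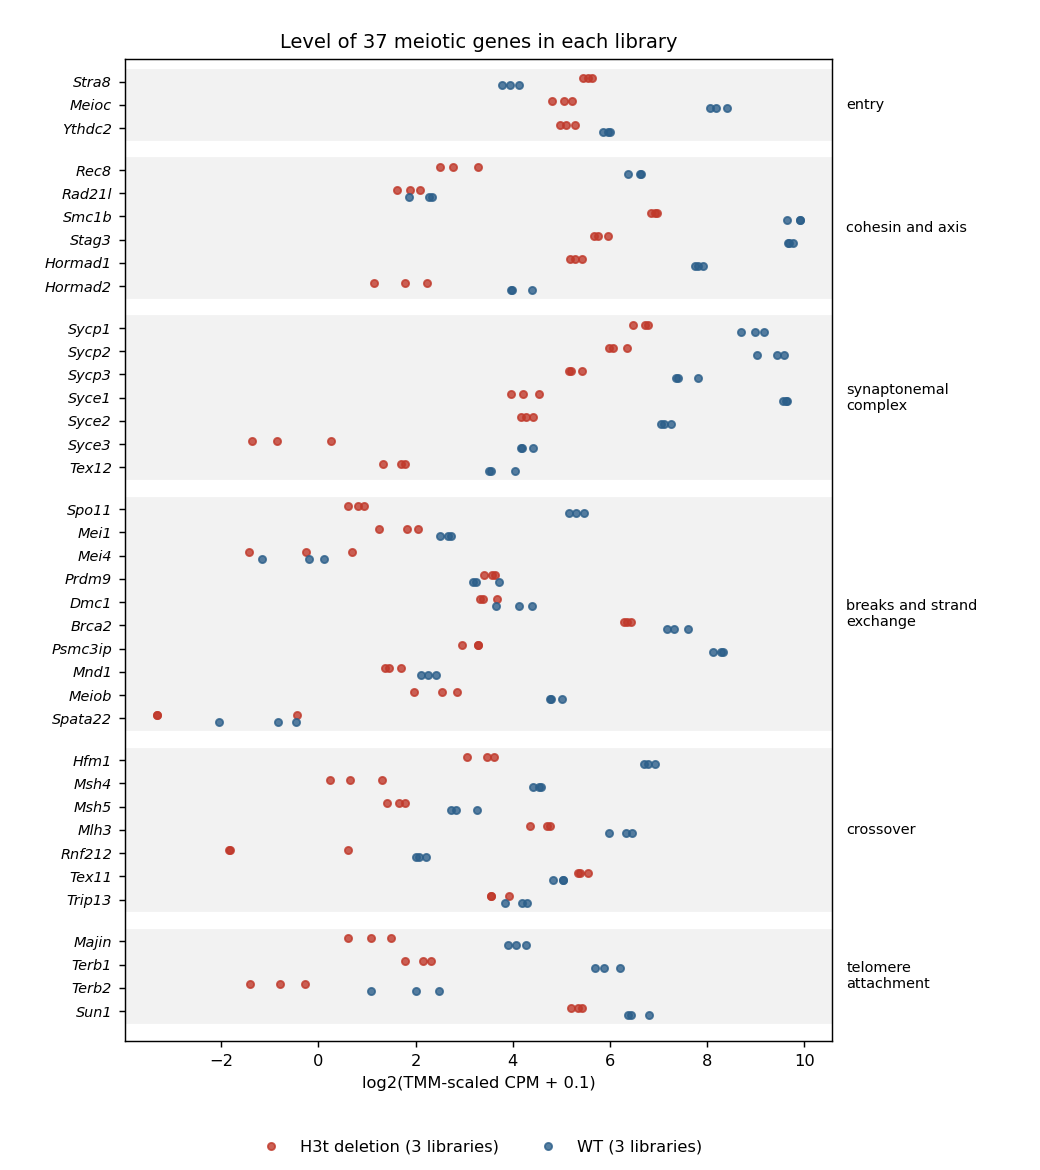
Level of each of the 37 genes, as log2(TMM-scaled CPM + 0.1), with 1 point per library and genes grouped by step. H3t deletion points lie to the left of WT for 29 genes and to the right for Stra8 and Tex11, and 6 genes overlap.

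Promoter windows are shown for the entry gene that rose and for the most abundant WT gene of the cohesin and axis, synaptonemal complex, and strand exchange steps. Each runs from 250 bases before to 50 after the RefSeq start (GRCm38.p6), 5′ to 3′ on the gene's strand, and capitals mark matches, on either strand, to any of 4 short motifs. Stra8 lies on the plus strand at chr6:34920698-34920997, Smc1b on the minus strand at chr15:85131908-85132207, Syce1 on the minus strand at chr7:140787805-140788104 and Psmc3ip on the minus strand at chr11:101095386-101095685.
Stra8: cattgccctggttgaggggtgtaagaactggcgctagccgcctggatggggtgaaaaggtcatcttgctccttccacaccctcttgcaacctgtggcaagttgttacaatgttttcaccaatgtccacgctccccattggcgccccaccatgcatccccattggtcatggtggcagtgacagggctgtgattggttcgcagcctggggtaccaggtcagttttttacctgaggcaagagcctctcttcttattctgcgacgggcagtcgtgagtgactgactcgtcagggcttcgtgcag
Smc1b: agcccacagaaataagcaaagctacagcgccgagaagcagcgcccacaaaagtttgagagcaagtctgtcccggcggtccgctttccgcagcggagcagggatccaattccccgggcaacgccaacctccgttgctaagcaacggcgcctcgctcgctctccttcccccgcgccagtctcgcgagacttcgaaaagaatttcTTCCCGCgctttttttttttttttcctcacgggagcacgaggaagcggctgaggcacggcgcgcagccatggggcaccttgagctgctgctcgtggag
Syce1: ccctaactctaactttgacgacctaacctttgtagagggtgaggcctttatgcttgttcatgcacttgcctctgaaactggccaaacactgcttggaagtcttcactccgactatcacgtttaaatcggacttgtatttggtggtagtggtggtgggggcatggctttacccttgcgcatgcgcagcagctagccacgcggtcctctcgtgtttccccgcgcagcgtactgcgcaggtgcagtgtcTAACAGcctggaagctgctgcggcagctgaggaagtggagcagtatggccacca
Psmc3ip: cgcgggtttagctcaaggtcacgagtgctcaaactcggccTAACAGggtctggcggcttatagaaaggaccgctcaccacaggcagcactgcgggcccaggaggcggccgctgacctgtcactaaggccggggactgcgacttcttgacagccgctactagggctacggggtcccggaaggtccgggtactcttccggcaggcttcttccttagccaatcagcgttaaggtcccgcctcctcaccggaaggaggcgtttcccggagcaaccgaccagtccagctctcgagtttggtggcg

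The motifs searched were CNCCTCAG, bound by STRA8 with its partner MEIOSIN, CNGTTA of the MYB family, GCGGGAA of the E2F family and TGACGT, the half-site of cyclic AMP response elements. RefSeq windows were matched for 31 of the 37 genes. The E2F letters stood in the windows of 12 of these 31 genes (38.7%), among them Smc1b, Stag3, Sycp3 and Hormad1, and in 5.29% of 27025 genes with a window. The STRA8/MEIOSIN letters stood in 8 of the 31 (25.8%), among them Hfm1, Sycp1, Tex12 and Prdm9, and in 9.12% of all genes. The MYB letters stood in 12 of the 31 (38.7%), among them Syce1, Psmc3ip, Stag3 and Msh4, and in 25.9% of all genes. The cyclic AMP half-site stood in the window of 1 of the 31, Brca2, and in 8.37% of all genes. None of the 4 motifs stood in the Stra8 window, whose RefSeq start differs from the GENCODE M21 gene start. Among genes tested, the median log2 change was -3.23 over the 11 with and -1.5 over the 18 without the MYB letters, and -2.53 over the 11 with and -2.33 over the 18 without the E2F letters. Over the 8 with and the 21 without the STRA8/MEIOSIN letters it was -2.22 and -2.79. These matches are a description of letters, and no binding was measured.

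At meiotic entry, the genes moved in opposite directions. Stra8, the retinoic acid target that starts the meiotic programme, had 43.3, 46.6 and 49.1 CPM in the 3 deletion libraries, against 13.7, 17.3 and 15.2 CPM in the WT libraries, in replicate order here and throughout. Every deletion library lay above every WT library. The log2 change was 1.58 (SE 0.14, adjusted p = 5.53e-08, edgeR), a 2.99-fold higher level. It was 0.63 when libraries were scaled to spermatogonial genes, and it turned to -0.69 when they were scaled to Sertoli genes. Meioc, which keeps cells in the meiotic programme once they have entered it, had 36.9, 33.0 and 27.8 CPM in the deletion, against 291, 266 and 340 CPM in WT. It was 9.17-fold lower, with a log2 change of -3.20 (SE 0.12, adjusted p = 1.29e-12). Ythdc2, an RNA helicase that binds MEIOC and is also used outside meiosis, fell by 0.82 on the log2 scale (SE 0.12, adjusted p = 1.08e-05), and with no scaling factor it was at -0.18 (adjusted p = 0.174) and not called. The reads of Meioc per read of Ythdc2 in the same library were 1.08, 0.855 and 0.890 in the deletion, against 5.04, 4.16 and 5.50 in WT. Gm4969, the table's name for Meiosin, the partner of STRA8, averaged 10.8 ± 1.65 CPM in deletion libraries and 10.9 ± 1.48 in WT libraries (SD, n = 3 each), a log2 change of -0.02 (SE 0.22) that was not called.

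Cohesins hold sister chromatids together, and the meiotic forms also carry the chromosome axis. Of 6 cohesin and axis genes 5 fell. Smc1b, the meiotic SMC subunit and the most abundant of the 37 genes in WT by CPM, had 126, 122 and 114 CPM in the deletion, against 959, 799.7 and 958 CPM in WT. The deletion libraries lay close together and far below WT, with a log2 change of -2.91 (SE 0.10, adjusted p = 3.54e-13). Stag3, another subunit of the same complexes, was 15-fold lower at a log2 change of -3.91 (SE 0.10), further down than Smc1b. The kleisin Rec8, which closes the cohesin ring, fell by 3.68 on the log2 scale (SE 0.17). The other meiotic kleisin, Rad21l, had 4.14, 3.62 and 2.96 CPM in the deletion, against 4.98, 4.77 and 3.52 CPM in WT. Its groups overlapped, and the log2 change of -0.31 (SE 0.33, adjusted p = 0.40) was not called. Reads of Rec8 per read of Rad21l were 2.31, 1.85 and 1.87 in the deletion, against 19.8, 20.8 and 23.4 in WT. Both genes of HORMA domain axis proteins fell, with Hormad1 at -2.53 (SE 0.10) and Hormad2 at -2.37 (SE 0.28). Of the 50-mers of Hormad1, 22.9% are shared with 2 other genes, Gm15529 and Gm7167, which had 0 counts in the deletion and 0 to 36 in WT.

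All 7 synaptonemal complex genes fell. Syce1, of the central element that holds the zipped homologs together, had 23.0, 15.5 and 18.5 CPM in the deletion, against 787, 755 and 798 CPM in WT. It was the lowest of all 37 genes in log2 change, at -5.36 (SE 0.13, adjusted p = 7.06e-15). Syce3, a small central element protein, had 12, 5 and 3 counts in the deletion, against 136, 155 and 126 counts in WT. Its log2 change was -4.91 (SE 0.35), or -5.61 without deletion replicate 1. The other central element genes fell less, Syce2 at -2.845 (SE 0.11) and Tex12 at -2.14 (SE 0.27) on the log2 scale. Sycp1, the transverse filament that bridges the homologs, was at -2.30 (SE 0.12). In the lateral elements, Sycp2 was at -3.23 (SE 0.14) and Sycp3 at -2.28 (SE 0.13). Of the exon bases of Sycp3, 52.2% overlap Chpt1 on the opposite strand, a gene that was 2.07-fold lower in the deletion. How the counting treated reads in the shared bases is not known, so the level of Sycp3 is less certain.

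Genes of breaks and strand exchange were uneven, with log2 changes of -5.08 to 0.14. Spo11, which makes the double-strand breaks, had 1.66, 1.81 and 1.43 CPM in the deletion, against 39.2, 35.3 and 44.1 CPM in WT. That is a log2 change of -4.58 (SE 0.21, adjusted p = 1.03e-11). Prdm9, the methyltransferase that chooses where breaks fall, had 12.3, 11.8 and 10.5 CPM in the deletion, against 9.03, 9.42 and 13 CPM in WT. Its groups overlapped, and it was not called at 0.14 (SE 0.22, adjusted p = 0.551). Mei1, needed for breaks to form, fell by 0.91 (SE 0.33, adjusted p = 0.0169), and without deletion replicate 2 it was at -0.70 (adjusted p = 0.073) and no longer called. The call was also lost with upper-quartile factors, at -0.38 (adjusted p = 0.281), and with no factor, at -0.28 (adjusted p = 0.424). Mei4, of the same break machinery, had 8, 3 and 16 counts in the deletion and 5, 3 and 7 counts in WT, too few to pass the filter, so a difference was not detectable at this depth.

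On the strand exchange side, Psmc3ip (also called Hop2), which forms a dimer with MND1 that helps the recombinases, had 9.58, 9.68 and 7.63 CPM in the deletion, against 310, 279.7 and 322 CPM in WT. It was 33.8-fold lower, at -5.08 (SE 0.12, adjusted p = 6.00e-15). Mnd1 itself had 3.13, 2.62 and 2.48 CPM in the deletion, against 4.203, 4.65 and 5.22 CPM in WT. The groups did not overlap, but the fall of 0.77 (SE 0.34, adjusted p = 0.0458) lost its call when any of 5 of the 6 libraries was left out, at adjusted p-values of 0.0575 to 0.109. Upper-quartile factors gave -0.23 (adjusted p = 0.525) and no factor -0.13 (adjusted p = 0.714), neither called. Reads of Psmc3ip per read of Mnd1 were 3.06, 3.69 and 3.08 in the deletion, against 73.8, 60.2 and 61.7 in WT. Of the 50-mers of Mnd1, 40.8% are shared with the pseudogene Mnd1-ps, which had 0 to 2 counts in the deletion and 0 to 4 in WT, and 21.2% of the exon bases of Psmc3ip overlap Mlx on the opposite strand, which was higher in the deletion at 1.25 (SE 0.32).

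The recombinase Dmc1, which invades the homolog, had 12.7, 10.3 and 9.91 CPM in the deletion, against 12.5, 17.4 and 21 CPM in WT. Its fall of 0.63 (SE 0.21, adjusted p = 0.0131) was called although the groups overlapped, and without WT replicate 3 it was at -0.50 (adjusted p = 0.0637). With upper-quartile factors it was at -0.09 (adjusted p = 0.692) and with no factor at 0.007 (adjusted p = 0.976). Brca2, which loads recombinases onto DNA and is used in all dividing cells, fell by 1.01 (SE 0.11). Meiob, which protects the strands before exchange, fell by 2.38 (SE 0.22). Its partner Spata22 had 0, 7 and 0 counts in the deletion and 4, 4 and 1 counts in WT and was not tested. Of its exon bases 80.5% also belong to Gm49340 on the same strand, which had 0 counts in every library, so the level of Spata22 is uncertain here.

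Of 7 crossover genes 5 fell and 1 rose. Hfm1, a helicase needed for crossovers, had 10.96, 8.23 and 12.2 CPM in the deletion, against 110, 104 and 121 CPM in WT, a log2 change of -3.42 (SE 0.14, adjusted p = 3.04e-12). MSH4 and MSH5 form the dimer that stabilises crossover intermediates. Msh4 fell by 3.78 (SE 0.27) and Msh5 by 1.35 (SE 0.31), and reads of Msh4 per read of Msh5 were 0.485, 0.324 and 0.926 in the deletion, against 2.49, 3.03 and 3.59 in WT. Mlh3, an endonuclease subunit that resolves crossovers, fell by 1.65 (SE 0.15). Rnf212, which stabilises recombination factors at crossover sites, had 2, 2 and 15 counts in the deletion and 29, 35 and 28 counts in WT. Its log2 change was -2.79 (SE 0.62), or -4.41 without deletion replicate 3, the library with most of its deletion reads.

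Tex11, an X-linked gene that promotes crossovers, had 41.6, 46.5 and 40.2 CPM in the deletion, against 32.8, 32.4 and 28.5 CPM in WT. All deletion libraries lay above WT, at a log2 change of 0.45 (SE 0.13, adjusted p = 0.00402). With median-of-ratios scaling it was at 0.28 (adjusted p = 0.0559) and not called, and scaled to the spermatogonial genes described below it turned to -0.51. Trip13, a remodelling enzyme that strips HORMADs from the axis and is also used in mitosis, had 15.01, 11.7 and 11.6 CPM in the deletion, against 19.5, 14.2 and 18.0 CPM in WT. The groups overlapped, and -0.43 (SE 0.19, adjusted p = 0.0534) was not called. It was called lower without deletion replicate 1, at -0.55 (adjusted p = 0.0251), and without WT replicate 2, at -0.57 (adjusted p = 0.0199). With all libraries, Trip13 was called lower with median-of-ratios scaling (-0.60, adjusted p = 0.00813) and with DESeq2, which scales the same way (-0.60, adjusted p = 0.00894). Scaled to spermatogonial or Sertoli genes it was also called lower, at -1.40 and -2.71. With upper-quartile factors it turned to 0.11 and with no factor to 0.21, neither called.

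All 4 genes of telomere attachment fell. TERB1, TERB2 and MAJIN form the complex that ties telomeres to the inner nuclear membrane. Terb1 was at -3.86 (SE 0.19), Majin at -3.02 (SE 0.28) and Terb2 at -2.93 (SE 0.55), and reads of Terb1 per read of Terb2 overlapped between the groups. Sun1, the membrane protein that links telomeres to the cytoskeleton and is found in many cell types, had 36.7, 40.5 and 42.8 CPM in the deletion, against 86.2, 110.7 and 82.5 CPM in WT. It fell less than the other 3, by 1.22 (SE 0.13, adjusted p = 2.17e-07).

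**Figure D2:**
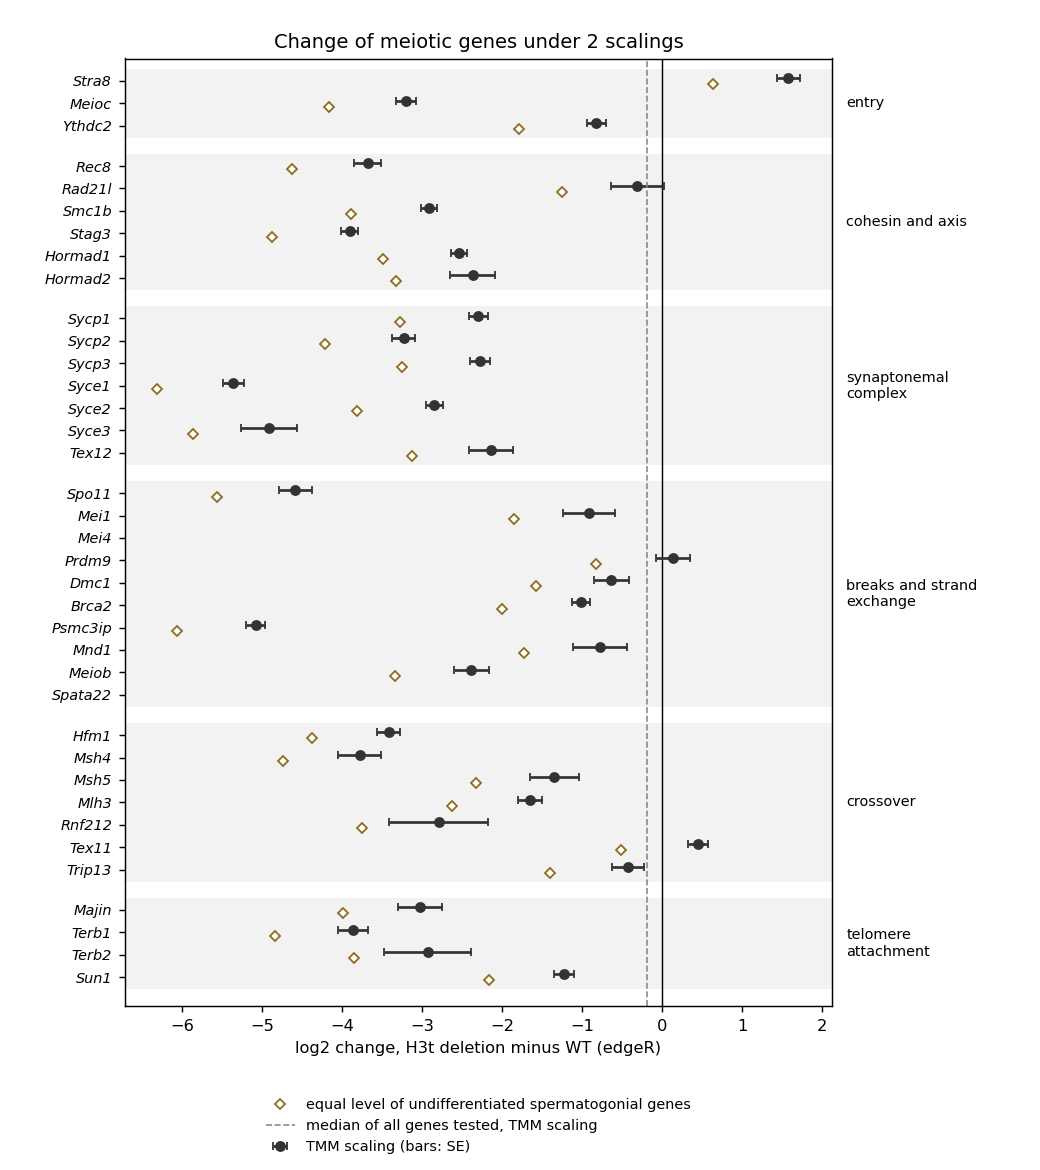
Log2 change (H3t deletion minus WT) of each tested gene with TMM scaling (filled circles, bars are SE) and with all libraries scaled to an equal level of undifferentiated spermatogonial genes (open diamonds). Stra8 stays to the right of 0 under both at 1.58 and 0.63, Tex11 changes side, and Syce1, Psmc3ip, Syce3 and Spo11 lie furthest to the left.

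Within a library, where no scaling factor enters, the make-up of the meiotic reads differed. Entry genes held 12.6%, 13.9% and 12.9% of all reads on the 37 genes in deletion replicates 1, 2 and 3, against 6.24%, 6.52% and 6.73% in WT. Of these entry reads, Stra8 gave 470, 515 and 515 of 1242, 1307 and 1135 in the deletion. In WT it gave 88, 149 and 108 of 2330, 2992 and 2955. Meioc gave 401, 365 and 292 in the deletion and 1871, 2292 and 2409 in WT. Ythdc2 gave 371, 427 and 328 in the deletion and 371, 551 and 438 in WT. The entry share without Stra8 was not computed. Synaptonemal complex genes held 29.1% ± 2.03 in the deletion and 39.7% ± 1.63 in WT, and cohesin and axis genes 26.5% ± 0.905 in the deletion and 36.1% ± 1.66 in WT (SD, n = 3 each). Crossover genes held 11.1% ± 0.411 in the deletion and 4.70% ± 0.112 in WT, breaks and strand exchange 14.7% ± 0.619 in the deletion and 9.98% ± 0.302 in WT, and telomere attachment 5.41% ± 0.506 in the deletion and 3.04% ± 0.361 in WT. Of the crossover reads, Tex11 alone gave 452, 514 and 422 of 1077, 1010 and 1010 in the deletion. In WT it gave 211, 279 and 202 of 1800, 2115 and 2047. The crossover share without Tex11 was not computed. Each of the 6 shares separated the groups (exact two-sided permutation p = 0.1, the smallest possible, and 0.1 adjusted over the 6 steps). The shares of a library sum to the whole, so a fall in some forces a rise in others, and the 6 tests are not independent. The share of telomere attachment was higher in the deletion though all 4 of its genes fell. These shares weigh long and abundant genes most. Counted per kb of exon, entry genes held 14.3% ± 1.04 in the deletion and 4.04% ± 0.164 in WT. On that scale the synaptonemal complex held 37.9% ± 1.99 in the deletion and 53.0% ± 0.782 in WT. Breaks and strand exchange then went the other way, at 10.01% ± 0.651 in the deletion and 11.2% ± 0.137 in WT, and cohesin and axis genes overlapped between the groups, at 26.4% ± 0.646 in the deletion and 27.3% ± 0.884 in WT (exact permutation p = 0.3). Without 5 genes that are also used outside meiosis (Ythdc2, Brca2, Mlh3, Trip13 and Sun1), 2 of the read shares turned round. Breaks and strand exchange then held 6.79% ± 0.423 in the deletion and 7.68% ± 0.0960 in WT, and telomere attachment 1.001% ± 0.187 in the deletion and 1.52% ± 0.145 in WT. Entry then held 11.8% ± 0.510 in the deletion and 5.85% ± 0.284 in WT. Crossover held 8.73% ± 0.642 in the deletion and 3.32% ± 0.114 in WT. Both still contain the genes called higher, Stra8 and Tex11, so these 2 shares do not show a rise of the other genes in their steps.

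**Figure D3:**
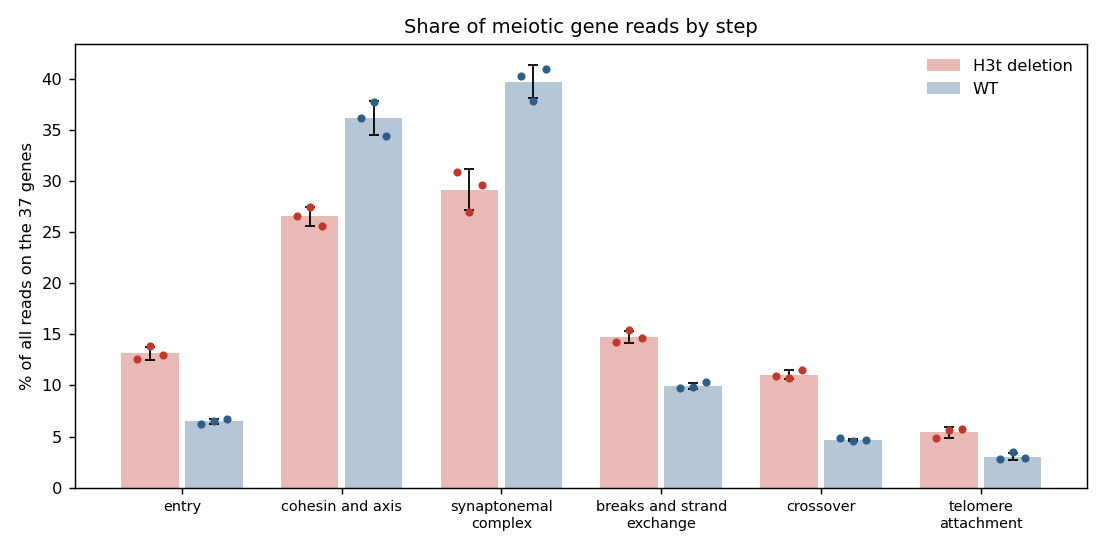
Share of all reads on the 37 genes that fell on each step, in % (bars are means, error bars SD, points single libraries). Entry, breaks and strand exchange, crossover and telomere attachment bars are taller in the H3t deletion than in WT, and the cohesin and axis and synaptonemal complex bars are shorter.

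Set against Stra8 in the same library, 34 of the other 36 genes had fewer reads per Stra8 read in every deletion library than in any WT library. The 2 genes that overlapped, Mei4 and Spata22, had not passed the filter. Of all other genes tested, 68.1% lay below WT on this scale and 12.4% above it, without overlap. The distance was small for Tex11, with 0.926 reads per Stra8 read in the deletion and 2.05 in WT on average, and for Prdm9, with 0.250 in the deletion and 0.685 in WT. It was largest for Syce1, with 0.414 reads in the deletion and 51.2 in WT, 124-fold fewer, and for Psmc3ip, with 0.195 in the deletion and 19.98 in WT. Stra8 itself rose, so these ratios carry its change as well.

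Genes whose proteins work as partners, or as paralogs in one structure, were set against each other within each library. Of 11 such ratios, chosen after the counts had been seen, 9 separated the groups and 2 overlapped (exact two-sided permutation p = 0.1 for each of the 9, the smallest possible, and 0.122 adjusted over the 11). Among single genes 85.9% of all tested separated the groups, so the count of ratios is given as a description only. The largest shift was that of Psmc3ip to Mnd1, with a mean log2 ratio of 1.71 ± 0.15 in the deletion and 6.02 ± 0.16 in WT, and the next was that of Rec8 to Rad21l, 1.0 ± 0.18 in the deletion and 4.41 ± 0.12 in WT (SD, n = 3 each). Syce1 per Syce2 was 1.19, 0.859 and 0.866 in the deletion, against 5.16, 5.70 and 5.82 in WT. Smc1b per Stag3 went the other way, at 2.32, 1.96 and 2.26 in the deletion, against 1.19, 0.916 and 1.16 in WT. Sycp2 to Sycp3 differed less, by -0.95 on the log2 scale, and Syce2 to Tex12 by -0.71. Hormad1 per Hormad2 overlapped, with log2 ratios of 3.62 ± 0.53 in the deletion and 3.72 ± 0.16 in WT.

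**Figure D4:**
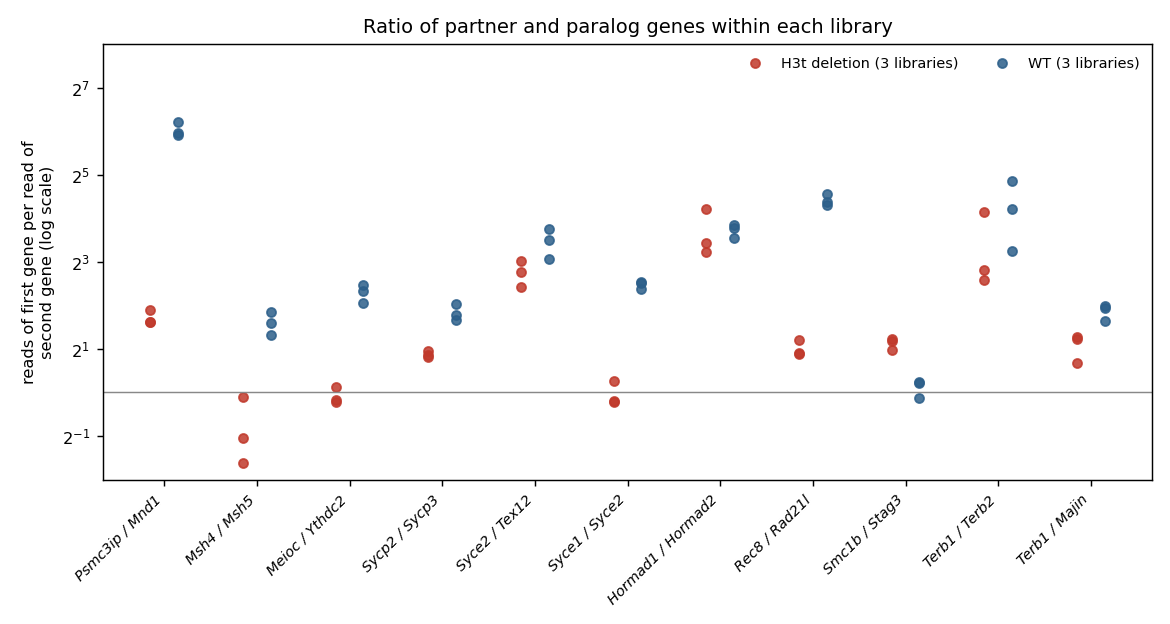
Reads of the first gene per read of the second in the same library, on a log scale, for 11 pairs of partner or paralog genes. H3t deletion points lie below WT in 8 pairs and above it for Smc1b to Stag3. The pairs Hormad1 to Hormad2 and Terb1 to Terb2 overlap.

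Levels per length give the order of the genes within a group. In WT, per kb of exon, Syce1 was highest at 534 CPM per kb, followed by Smc1b at 224 and Psmc3ip at 167. In the deletion the order was led by Sycp3 at 30.3 CPM per kb, Smc1b at 29.8 and Sycp1 at 28.6, with Stra8 at 25.7 and Hormad1 at 22.6. Stra8 was at 8.55 CPM per kb in WT. Across the 35 genes tested, the log2 change went down with the WT level, with a Spearman rho of -0.487, and the change and the WT level share the WT libraries. The 14 genes under 20 CPM in WT had a median log2 change of -1.13, and the 21 others -2.91. Syce3, under 20 CPM in WT, was among the lowest at -4.91. The change showed no such trend with exon length, at a rho of 0.066.

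Beside lists that mark germ cell stages, the median change of the meiotic genes lay between those of the spermatogonial and the pachytene lists. The 11 tested genes of undifferentiated spermatogonia had a median of 1.78, with 6 higher and 2 lower. The 9 of differentiating spermatogonia had a median of 0.43, with 4 higher and 3 lower. Over all genes tested, 38.4% were higher and 46.1% lower. Averaged over both groups, Id4, at -1.41, was the most abundant gene of the undifferentiated list and Dmrtb1, at -6.21, that of the differentiating list. In the deletion alone, Zbtb16 at 52.4 CPM and Kit at 185 CPM led these lists, with Id4 at 30.0 CPM and Dmrtb1 at 4.84 CPM. Kit had the largest rise of its list, at 3.13, and which cells gave its reads was not tested. All 15 genes of pachytene spermatocytes and all 15 spermatid genes fell, with medians of -7.49 and -9.40. The summed level was 156 to 174 CPM in deletion libraries and 10254 to 10531 in WT for the pachytene list, and 94.9 to 194 in deletion libraries and 30561 to 32462 in WT for the spermatid list. By step, the median log2 changes were -0.82 for entry, -2.72 for cohesin and axis, -2.845 for the synaptonemal complex, -0.96 for breaks and strand exchange, -1.65 for crossover and -2.98 for telomere attachment. The lowest of the 35, Syce1 at -5.36, was above the median of the pachytene list. The most abundant pachytene gene was Hspa2, at -5.08, and the most abundant spermatid gene Odf2, at -6.33. Deletion replicate 1 had the most reads on the spermatid list, 2103 against 1656 and 995 in replicates 2 and 3. Odf2 alone gave 1322, 1315 and 881 of these. Among the deletion libraries, 19, 11 and 7 of the 37 meiotic genes were highest in replicates 1, 2 and 3. The matching shares over all genes were not computed. What part the spermatid-list reads of replicate 1 had in the meiotic values was not tested. Without deletion replicate 1 the median over the meiotic genes was -2.59.

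**Figure D5:**
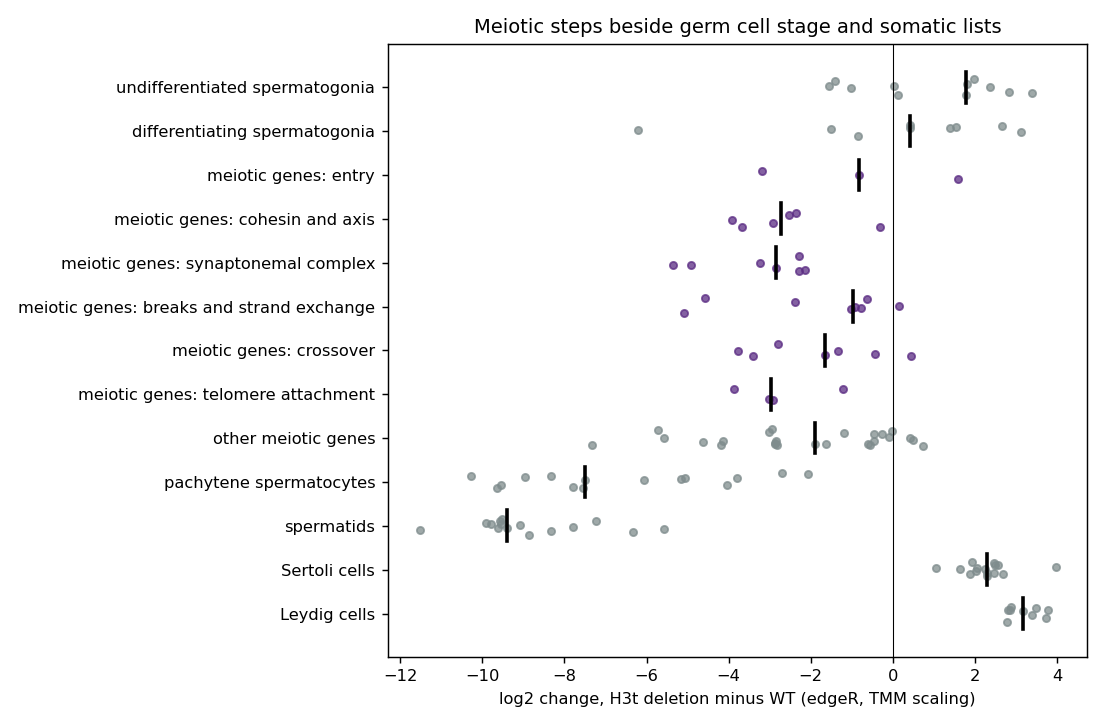
Log2 change (H3t deletion minus WT, TMM scaling) of each tested gene, with the 37 meiotic genes split by step (purple) and other lists (grey), and black bars at list medians. The step medians lie between -0.82 and -2.98, below the medians of the spermatogonial lists and above the pachytene median at -7.49. Single genes of these lists overlap. The pachytene genes run from -10.27 to -2.07 and the differentiating spermatogonial genes from -6.21 to 3.13.

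Scaled to an equal mean level of the undifferentiated spermatogonial list in every library, 34 of the 35 genes were lower in the deletion, where 57.8% of all genes were lower, and 1, Stra8, was higher, where 20.1% were higher and 77.9% changed in either direction. The median was -3.34, and Stra8 was at 0.63 (SE 0.24, adjusted p = 0.013). Prdm9 and Tex11 were then at -0.82 and -0.51. Under TMM the 11 tested genes of that list ran from -1.55 to 3.40, with 6 higher and 2 lower. The level set equal is therefore a mean over genes that moved apart. What part of their reads came from other cells was not tested, so these values are not changes per spermatogonium. With the Sertoli list set equal in every library instead, all 35 were lower, where 77.7% of all genes were lower, 3.12% higher and 80.8% called in all, and Stra8 was at -0.69.

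Of the other meiotic genes, a list of 27 chosen for their roles, 25 were in the table and tested, with a median of -1.89. Of the 25, 2 rose, where 38.4% of all genes were higher, and 19 fell, where 46.1% were lower. Fkbp6, a chaperone needed for spermatogenesis, rose by 0.50 (SE 0.14, adjusted p = 0.00372). The lowest were Meikin, a kinetochore regulator of the first division, at -7.34 (SE 0.50), Ccdc155 (Kash5), the partner of SUN1 at telomeres, at -5.73 (SE 0.18), and Cntd1, a crossover factor, at -5.59 (SE 0.19). Meikin had 0, 0 and 3 counts in the deletion and 114, 148 and 118 counts in WT, so its fitted change depends on the prior count. Zcwpw1, a reader of the marks that PRDM9 writes, was at -0.27 (SE 0.12, adjusted p = 0.0453), and the break factors Rec114, at 0.41 (SE 0.59), and Gm960 (Top6bl), at -0.47 (SE 0.50), were not called.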

How the data were processed

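RNA was sequenced from testis cryosections of 3 H3t deletion and 3 WT mice. The authors deposited raw counts per Ensembl gene; Trim Galore, HISAT2, featureCounts and GRCm38 are named per the submitters' processing notes. For versions, annotation release and strand, the setting is not given in the sources used here. The mouse numbers in the titles are not stated to mark a litter or batch, so no pairing was used, and p-values measure only how these samples vary, which may be technical. Counts of replicates differed by more than sampling noise (chi-square per degree of freedom 4.75 to 7.32).

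Counts were tested with edgeR 4.0.16 (quasi-likelihood, TMM, filterByExpr) in R 4.3.3, on 17038 of 54100 genes, and called at a false discovery rate of 0.05. Within-library ratios and shares used exact two-sided permutation tests. Alternatives were other scalings, filters and thresholds, DESeq2 1.42.0, limma 3.58.1 voom and leaving out each library. DESeq2 used its own median-of-ratios factors, so it is not a scaling separate from median-of-ratios. Exon lengths, overlaps and shared 50-mers came from GENCODE M21 (GRCm38), promoters from RefSeq (GRCm38.p6). The edgeR fit was checked on simulated counts in which few genes changed, up and down alike. That check does not cover changes as wide as those seen here, nor the shares, ratios or motifs.

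The genes and lists were chosen with earlier results of these data known. Per-library values are given for genes called higher, for the most abundant WT gene of each step, for the 3 lowest log2 changes, and for genes not called. Per-library values of Spo11, Mnd1 and Dmc1, counts of Rnf212 and Meikin, and Zcwpw1, Rec114, Gm960, Gm4969, Zbtb16 and Kit were added after their values were seen. The list of other meiotic genes is counted whole, and 2 of its genes are not reported here by name or in ratios.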

Additional observations from a re-analysis of the deposited data

How the results depend on the processing

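With 3 libraries per group, the genes under about 20 CPM in WT carried the widest errors, and small changes hung on the scaling. Over all genes the median log2 change under TMM was -0.19, and higher genes made up 45.4% of calls. Median-of-ratios factors gave -0.36 and 42.3%, upper-quartile factors 0.35 and 55.1%, and no factor 0.45 and 56.6%. The median of the meiotic genes, -2.38, was -2.56 with median-of-ratios, -1.84 with upper-quartile, -1.75 with no factor, -3.34 at equal spermatogonial level, -4.65 at equal Sertoli level, -2.56 with DESeq2 and -2.82 without the 5 genes used outside meiosis. The 2 genes higher became 1 with median-of-ratios, at equal spermatogonial level, with a test against 1.5-fold and with DESeq2, 0 at equal Sertoli level, and 3 with upper-quartile and with no factor. In these settings, in that order, 35.4%, 20.1%, 31.9%, 34.3%, 3.12%, 47.6% and 49.2% of all genes tested were higher. The 30 genes lower became 31, 27, 26, 34 and 35 with median-of-ratios, upper-quartile, no factor, equal spermatogonial and equal Sertoli level, 27 at a false discovery rate of 0.01 and against 1.5-fold, 31 with DESeq2 and 29 with no filter. With those scalings, in that order, 48.3%, 38.8%, 37.7%, 57.8% and 77.7% of all genes tested were lower. The share was 43.6% at a false discovery rate of 0.01, 40.4% against 1.5-fold, 47.9% with DESeq2 and 31.8% with no filter. Leaving out each library gave medians of -2.59 to -2.32, 28 to 30 genes lower, 2 higher in each case, and an entry share 6.27 to 6.90 percentage points higher in the deletion. That difference, 6.64 points, was 10.2 per kb of exon and 5.91 without the 5 genes. Without them the entry step is Stra8 and Meioc alone, at log2 changes of 1.58 and -3.20. How much of the difference would be left without Stra8 was not computed. Of all genes tested, 44% to 46.5% were lower and 35.7% to 36.4% higher when single libraries were left out. Directions turned for Stra8 at equal Sertoli level (-0.69), Rad21l with upper-quartile (0.23) and no factor (0.33), and Dmc1 with no factor (0.007). Prdm9 turned with median-of-ratios (-0.032), DESeq2 (-0.032), equal spermatogonial (-0.82) and equal Sertoli level (-2.13), and Tex11 at equal spermatogonial (-0.51) and Sertoli level (-1.83). Trip13 turned with upper-quartile (0.11) and no factor (0.21). With upper-quartile and no factor, Prdm9 was called higher, at 0.68 and 0.78, where 47.6% and 49.2% of all genes were higher. Over all single genes and settings, 550 values kept direction and call, 23 lost the call, 10 gained it and 12 turned. All 12 turns came in settings whose scaling factors differ from TMM, and none with another filter, another threshold or a library left out. The cause was not tested. No paired analysis was possible because the labels give no shared replicate numbers.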
